A study of Mus musculus with 6 samples.

Results

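Ribosome biogenesis factors are the proteins that transcribe, modify, cut and package ribosomal RNA into subunits. The 36 studied here are a list of named genes, drawn up with earlier results of these data known, and no measured difference entered the rule that matched them to the arrays. A gene counted as measured where a row of the array table was annotated with that symbol alone, and where several such rows existed, the brightest by its average across the 6 arrays stood for the gene. By this rule 34 of the 36 were measured, among 19938 genes in all, and Npm3 and Noc2l were not analysed here.

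The cells were KSL cells, the cKit+Sca1+Lin- fraction of blood-forming stem and progenitor cells, from mice on a C57BL/6 background after at least 3 generations of backcrossing. The DKO group held 3 samples from Runx1fl/fl;Runx3fl/fl;Mx1-Cre+ mice, labelled as double knockouts of the transcription factor genes Runx1 and Runx3. The WT group held 3 samples from Runx1fl/fl;Runx3fl/fl;Mx1-Cre- littermates, each described as pooled from 3 mice, and whether DKO samples were pooled too is not said. The number of mice given in the design text does not match this pooling, so how many mice stand behind each array is not known. Both groups carried the floxed alleles, and the protocol describes 7 injections of 600 µg pIpC, every other day beginning at 4 weeks of age, for both groups, although a label calls the cells untreated. This RNA analogue induces an interferon response and, through it, the Mx1 promoter, which acts in blood cells and in other interferon-responsive cells. The WT mice lacked Cre, so the deletion and the recombinase itself cannot be told apart. If samples of a group were not from separate mice, p-values measure only the spread between these samples, and precision is limited by having 3 arrays a group.

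The ribosomal RNA genes are read by RNA polymerase I in the nucleolus. Small nucleolar ribonucleoproteins (snoRNPs) then guide chemical changes at chosen bases of the transcript, the box C/D class by methylation and the box H/ACA class by conversion of uridine to pseudouridine. Assembly factors bind the processed RNA in order and leave again as the small and the large subunit mature. Blood stem cells are known for a low and tightly held rate of protein synthesis, and inherited defects of several such factors cause bone marrow failure.

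Values are log2 signals, so a difference of 1 is a doubling, and differences are DKO minus WT. Array medians lay between 5.88 and 5.91, and correlations between arrays were 0.994 to 0.995 within DKO, 0.989 to 0.991 within WT and 0.976 to 0.980 between the groups. Runx1 signal was higher in the DKO-labelled arrays (9.29 ± 0.08 against 8.47 ± 0.08 in WT, SD, n = 3, limma adjusted p = 0.000427), and Runx3 differed by -0.15 (adjusted p = 0.253). With a trend over gene span and signal removed, Runx1 was at 0.50 (0.00558) and Runx3 at -0.30, which passed (0.0395). A signal averaged over a whole gene can include exons that were not deleted, so neither value checks the deletion, and DKO below means labelled DKO. Kit, the measured gene of the sort itself, rose by 0.73 (0.00289), and Ly6a, which encodes Sca1, was not analysed here. Of 5 surface markers that divide KSL cells or mark blood cells at large, Slamf1, Cd48 and Ptprc rose by 1.95, 1.46 and 0.76, Flt3 fell by 1.32 (adjusted p of 6.38e-05, 7.18e-05, 0.000459 and 0.000434) and Cd34 was at 0.02. The summed linear signal of these 6 genes was 5660 to 6370 in DKO and 4160 to 4270 in WT. The 17 measured markers of lineage-positive cells gave 0 calls (3 had an unadjusted p under 0.05), with sums of 769 to 824 in DKO and 803 to 1080 in WT. Only WT replicate 3 reached 1080, and WT replicates 1 and 2 were at 803 and 821. Of those 17, 6 lay below the lower quartile of all genes by mean signal. The part of these marker levels in the differences below was not tested, and fewer cells of a type cannot be told apart from less RNA per cell.

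Of the 34 measured factors, 7 fell and 3 rose in DKO KSL cells, and 24 did not pass the threshold of 0.05 on the limma adjusted p over all genes. The 24 include Fbl by the brighter of its 2 probe sets. With the dimmer one Fbl was at -0.74 and passed (0.000538), so its place in these counts is uncertain. The 7 that fell were Pes1, Nhp2, Mrto4, Rrp9, Rrp12, Nop2 and Ubtf, and the 3 that rose were Wdr12, Rrn3 and Rrs1. Over all genes 7.69% fell and 9.71% rose, 17.4% together, while the factors gave 20.6% and 8.82%, 29.4% together. The median difference over the 34 was -0.04, the same as the -0.04 over all genes. Among the 34 the groups did not overlap for 17, with 10 lower in DKO and 7 higher, where 35.8% of all genes showed no overlap. The 2 largest differences, those of Pes1 and Nhp2, were falls. The rises were smaller than these 2 falls, and 0 of the 3 passed after quantile normalisation or cyclic loess. With arrays centred on the median all 3 rises passed. Among the falls, the call of Ubtf was lost with arrays centred and that of Rrp12 after cyclic loess. By signal strength, 20 of the 34 lay in the strongest 10% of all genes, where 29.2% of genes rose and 8.98% fell. Of the called factors, Rrn3, Wdr12 and Rrs1, which rose, and Ubtf and Nhp2, which fell, lay there. The other falls were dimmer, with Pes1, Mrto4, Nop2, Rrp9 and Rrp12 at percentiles 82.8, 88.8, 80.1, 61.5 and 52.6 by mean signal. In the 10% bands of signal that hold these dimmer falls, 9.48% to 12.0% of genes fell and 6.47% to 22.9% rose.

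**Figure D1:**
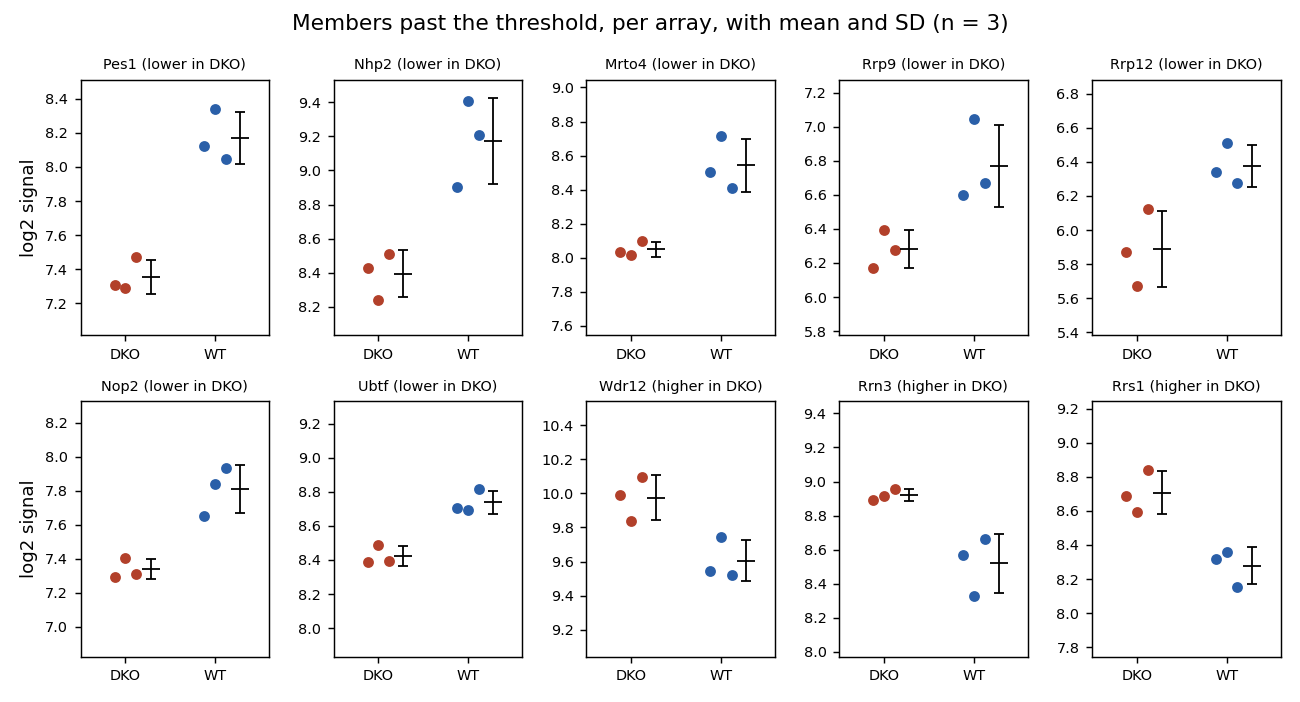
Log2 signal of the 10 factors past the threshold, with 1 point per array (DKO left, WT right) and bars for mean and SD of 3 arrays. The DKO and WT points do not overlap in any of the 10 panels, which were chosen by adjusted p, and each panel spans the same height of the log2 axis.

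The first step, transcription by RNA polymerase I, was measured through 4 genes, of which 1 rose and 1 fell. Rrn3, also called TIF-IA, is the initiation factor that brings the polymerase to the ribosomal DNA promoter. Its signal was 8.89, 8.91 and 8.96 in DKO arrays 1, 2 and 3, against 8.57, 8.33 and 8.66 in WT arrays 1, 2 and 3. All 3 DKO values lay above all 3 WT values, and the DKO values were closely spaced. The rise was 0.40 (SE 0.103, limma adjusted p = 0.0258), or 32.1%. It was 0.30 without WT replicate 2, the lowest of the 6 (adjusted p = 0.0579), 0.24 after quantile normalisation (0.211) and 0.225 with a trend over gene span and signal removed (0.191), and it also missed the threshold without DKO replicate 1, 2 or 3 (0.0701, 0.0715 and 0.0905).

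Ubtf encodes the upstream binding factor that coats active ribosomal DNA. It read 8.39, 8.49 and 8.39 in DKO arrays, against 8.70, 8.70 and 8.82 in WT arrays, again without overlap. The fall was by 0.31 (SE 0.0856, limma adjusted p = 0.0328), or by 19.6%, and the call was lost without DKO replicate 1, 2 or 3 (0.11, 0.0599 and 0.109) and without WT replicate 3 (0.0948), and with arrays centred on the median (-0.27, 0.0558). Polr1a and Polr1b, the genes of the 2 largest polymerase subunits, differed by -0.05 and -0.02, with 95% intervals of -0.28 to 0.18 and -0.20 to 0.17. Thus both subunit genes had overlapping groups, whereas the initiation factor and the DNA-coating factor did not.

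Among the box C/D snoRNP genes, 1 of 4 fell and 0 rose, with Fbl counted by the brighter of its 2 probe sets, which disagree. Rrp9 encodes the protein specific to the U3 particle, which guides cleavage of the primary transcript rather than methylation. It read 6.17, 6.39 and 6.28 in DKO arrays, against 6.60, 7.05 and 6.67 in WT arrays. The groups did not overlap, and WT replicate 2 stood highest. Rrp9 fell by 0.49 (SE 0.127, limma adjusted p = 0.0263), a decrease of 28.8%, and the value was -0.35 without WT replicate 2 (0.05), -0.44 without DKO replicate 1 (0.0987) and -0.49 without DKO replicate 3 (0.0824). The core scaffold genes Nop56 and Nop58, which are paralogs, differed by -0.04 and 0.19 (adjusted p = 0.802 and 0.194). Nop58 read 9.98, 9.80 and 9.92 in DKO arrays, against 9.64, 9.79 and 9.71 in WT arrays, so its groups were separate by a narrow margin.

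Fbl, the gene of the methyltransferase fibrillarin, gave contrary readings from its 2 probe sets. The brighter probe set 10447589, used by the rule, read 10.94, 10.80 and 10.86 in DKO arrays, against 10.70, 10.92 and 10.64 in WT arrays, a difference of 0.11 (limma adjusted p = 0.494). The dimmer probe set 10551464 read 6.07, 5.98 and 6.07 in DKO arrays, against 6.73, 6.80 and 6.81 in WT arrays. There all DKO values lay below all WT values, and with that probe set in its place the fit gave -0.74 (adjusted p = 0.000538). With the mean of both it gave -0.31 (0.0344). Probe set numbers on this array tend to follow genome order, and of the 20 probe sets nearest in number to the dimmer one all 20 belong to genes on the chromosome of Fbl. Of the 20 nearest to the brighter one only 1 does and 17 belong to genes on chromosome 17, whereas Fbl lies on chromosome 7. For each of the other 33 factors the probe set used had at least 18 neighbours on the chromosome of its gene. No direction is therefore given for Fbl. Such neighbours were counted for the 34 factors only, and not for the genes of the other lists.

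**Figure D2:**
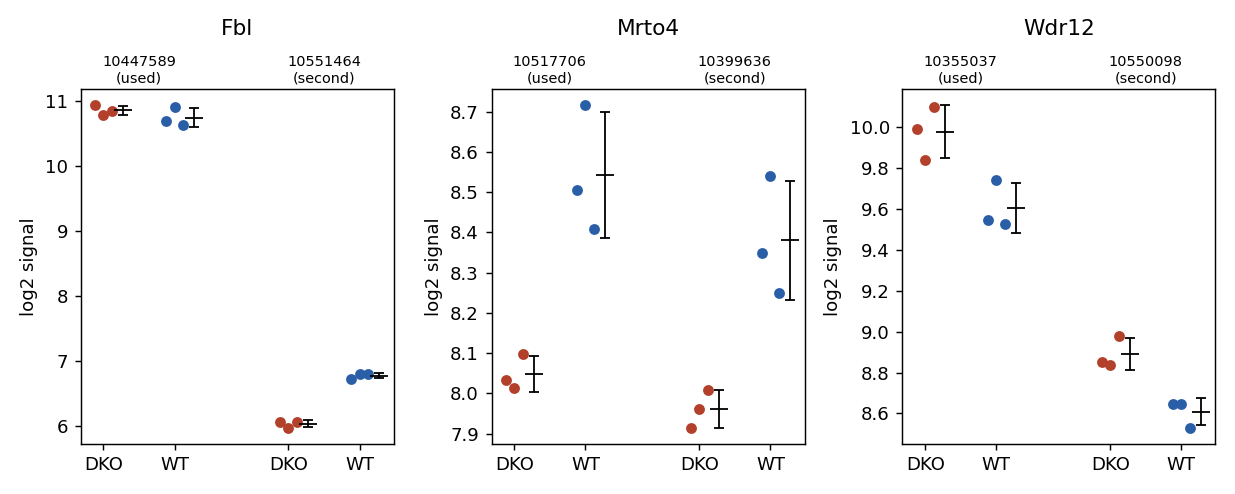
Log2 signal of the 3 factors with a second probe set, by array (DKO left of WT within each probe set), with mean and SD of 3 arrays. The pairs of Mrto4 and of Wdr12 differ in the same direction between the groups and the pair of Fbl does not, while the second probe sets of Mrto4 and Wdr12 and the used one of Fbl have 0, 0 and 1 of 20 neighbours on the chromosome of the gene.

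In the box H/ACA particle, the pseudouridine-forming snoRNP that is also part of telomerase, 1 of 4 genes fell and 0 rose. Nhp2 encodes a small RNA-binding subunit of this particle. Its signal was 8.43, 8.24 and 8.51 in DKO arrays, against 8.90, 9.41 and 9.21 in WT arrays, a gap of 0.39 between the highest DKO and the lowest WT value. Nhp2 fell by 0.78 (SE 0.134, limma adjusted p = 0.00411), or by 41.7%, and passed in all 18 alternative analyses at -0.93 to -0.66. Dkc1, the gene of the catalytic subunit dyskerin, read 9.20, 9.06 and 9.24 in DKO arrays, against 8.87, 8.76 and 9.04 in WT arrays. These groups were separate by a narrow margin, and the difference of 0.27 did not pass (adjusted p = 0.0973, in a range of 0.0562 to 1 over the alternatives). Gar1 and Nop10, the remaining core subunits, differed by -0.11 (95% interval -0.31 to 0.09) and 0.09 (-0.22 to 0.40), with overlapping groups. The fall of Nhp2 thus stood beside 3 partner genes whose differences ran from -0.11 to 0.27.

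The nucleolar chaperones and scaffolds gave 0 calls of 3 (1 had an unadjusted p under 0.05). Ncl and Npm1, which encode the abundant proteins nucleolin and nucleophosmin, differed by -0.13 and -0.16, with overlapping groups. Nolc1, a scaffold that binds both classes of snoRNP, read 8.50, 8.30 and 8.47 in DKO arrays, against 8.53, 8.83 and 8.66 in WT arrays. Its groups were barely separate, and its difference of -0.25 (limma adjusted p = 0.14) became -0.41 after quantile normalisation (0.0209) and -0.38 after cyclic loess (0.026).

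Of the 7 genes of small subunit assembly, Rrp12 fell and 6 did not pass. Rrp12, whose yeast counterpart is needed for export of both pre-ribosomal particles, read 5.87, 5.67 and 6.12 in DKO arrays, against 6.34, 6.51 and 6.28 in WT arrays. DKO replicate 3 came within 0.16 of the lowest WT value. The fall was by 0.49 (SE 0.124, limma adjusted p = 0.0245), or by 28.8%. It was lost without DKO replicate 1 (-0.48, 0.0788), DKO replicate 2 (-0.38, 0.0844) or WT replicate 2 (-0.42, 0.0667), and after cyclic loess (-0.43, 0.0509). Utp18, a component of the early particle called the small subunit processome, read 8.19, 8.06 and 8.34 in DKO arrays, against 7.40, 8.05 and 7.85 in WT arrays. Its difference of 0.43 was the highest of those that did not pass (adjusted p = 0.0928), with WT replicate 1 far below the other two. It was 0.24 without WT replicate 1 (0.199), and 0.57 without WT replicate 2, where it passed (0.0335). Noc4l, which in yeast forms a pair with the Nop14 protein in that processome, read 6.77, 6.67 and 6.63 in DKO arrays, against 6.96, 6.94 and 6.94 in WT arrays. All 3 WT values lay together above the DKO values, and the difference of -0.25 missed the threshold (adjusted p = 0.067, and 0.0402 without the dimmest 50% of genes). Nop14 itself, Utp20, Rcl1 and Wdr43 differed by -0.04 to 0.16.

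The PeBoW complex, named from its parts Pes1, Bop1 and Wdr12, is required for maturation of the RNAs of the large subunit and for cell proliferation. Its 3 genes differed in direction, with 1 fall, 1 rise and 1 that did not pass. Pes1 read 7.31, 7.29 and 7.47 in DKO arrays, against 8.12, 8.34 and 8.05 in WT arrays, with 0.58 between the groups at their nearest. Pes1 fell by 0.81 (SE 0.104, limma adjusted p = 0.000965), or by 43.1%, the largest difference of the 34, and passed in all 18 alternatives at -0.91 to -0.73. Bop1 read 5.93, 5.81 and 5.92 in DKO arrays, against 6.04, 6.16 and 6.10 in WT arrays, which did not overlap, but its difference of -0.21 did not pass (adjusted p = 0.125). Its 95% interval was -0.40 to -0.02, and its value was -0.24 to -0.15 over 17 alternatives. Bop1 was the dimmest of the 34, at percentile 49.3 of all genes by mean signal.

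Wdr12 went the other way from Pes1, at 9.99, 9.84 and 10.10 in DKO arrays, against 9.55, 9.74 and 9.52 in WT arrays. The rise was 0.37 (SE 0.103, limma adjusted p = 0.0348), or 29.4%, and a second probe set annotated to it differed by 0.28, but 0 of its 20 nearest probe sets belong to genes on the chromosome of Wdr12. The call was lost in 9 of 18 alternatives, among them quantile normalisation (0.24, adjusted p = 0.113) and removal of the trend over gene span and signal (0.19, 0.272). It was lost also without DKO replicate 1 (0.36, 0.103) or 3 (0.31, 0.132) and without WT replicate 1 (0.34, 0.0805) or 3 (0.33, 0.102). Pes1 was therefore lower under every setting tried, while the higher level of Wdr12 kept its sign and not its call.

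The other 9 genes of large subunit assembly gave 2 falls and 1 rise. Mrto4, a relative of the ribosomal stalk protein P0 that holds its place on the immature subunit, read 8.03, 8.01 and 8.10 in DKO arrays, against 8.50, 8.72 and 8.41 in WT arrays. It fell by 0.49 (SE 0.0998, limma adjusted p = 0.00879), or by 29%, and a second probe set annotated to it gave -0.42, though 0 of its 20 nearest probe sets belong to genes on the chromosome of Mrto4. Nop2, a methyltransferase of the large subunit RNA and a classic proliferation antigen, read 7.30, 7.41 and 7.31 in DKO arrays, against 7.65, 7.84 and 7.94 in WT arrays. It fell by 0.47 (SE 0.0979, adjusted p = 0.00985), or by 27.9%. For both genes the groups were well apart, and both kept their call in all alternatives except the test against a minimum fold of 1.2. Rrs1, which helps to bring the 5S RNA particle into the subunit, read 8.69, 8.59 and 8.84 in DKO arrays, against 8.32, 8.36 and 8.15 in WT arrays. Its rise of 0.43 (SE 0.1, adjusted p = 0.0172), or 34.7%, became 0.28 after quantile normalisation (0.0743) and was lost without DKO replicate 1 (0.44, 0.0542) or 3 (0.36, 0.0734) or WT replicate 3 (0.37, 0.057).

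Sbds, the gene mutated in Shwachman-Diamond syndrome, a disorder with bone marrow failure, encodes the factor that frees the finished large subunit for translation. It read 7.81, 7.99 and 8.06 in DKO arrays, against 7.48, 7.55 and 7.89 in WT arrays, so that WT replicate 3 lay within the DKO values. The difference of 0.31 did not pass (limma adjusted p = 0.115), and without WT replicate 3 it was 0.44 and passed (0.0328). Nle1, also known as Notchless, an assembly factor that mouse blood stem cells require, read 6.67, 6.83 and 6.76 in DKO arrays, against 6.96, 6.81 and 7.05 in WT arrays. Its difference was -0.18 (95% interval -0.40 to 0.03), and the groups overlapped. Gnl3, the GTPase nucleostemin, named for its abundance in stem cells, differed by 0.17 (-0.10 to 0.44), which was 0.07 without WT replicate 1 and 0.04 after quantile normalisation. Ddx21, an RNA helicase of the nucleolus, Nop16 and Ebna1bp2 differed by 0.03, 0.10 and -0.11, all with overlapping groups.

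**Figure D3:**
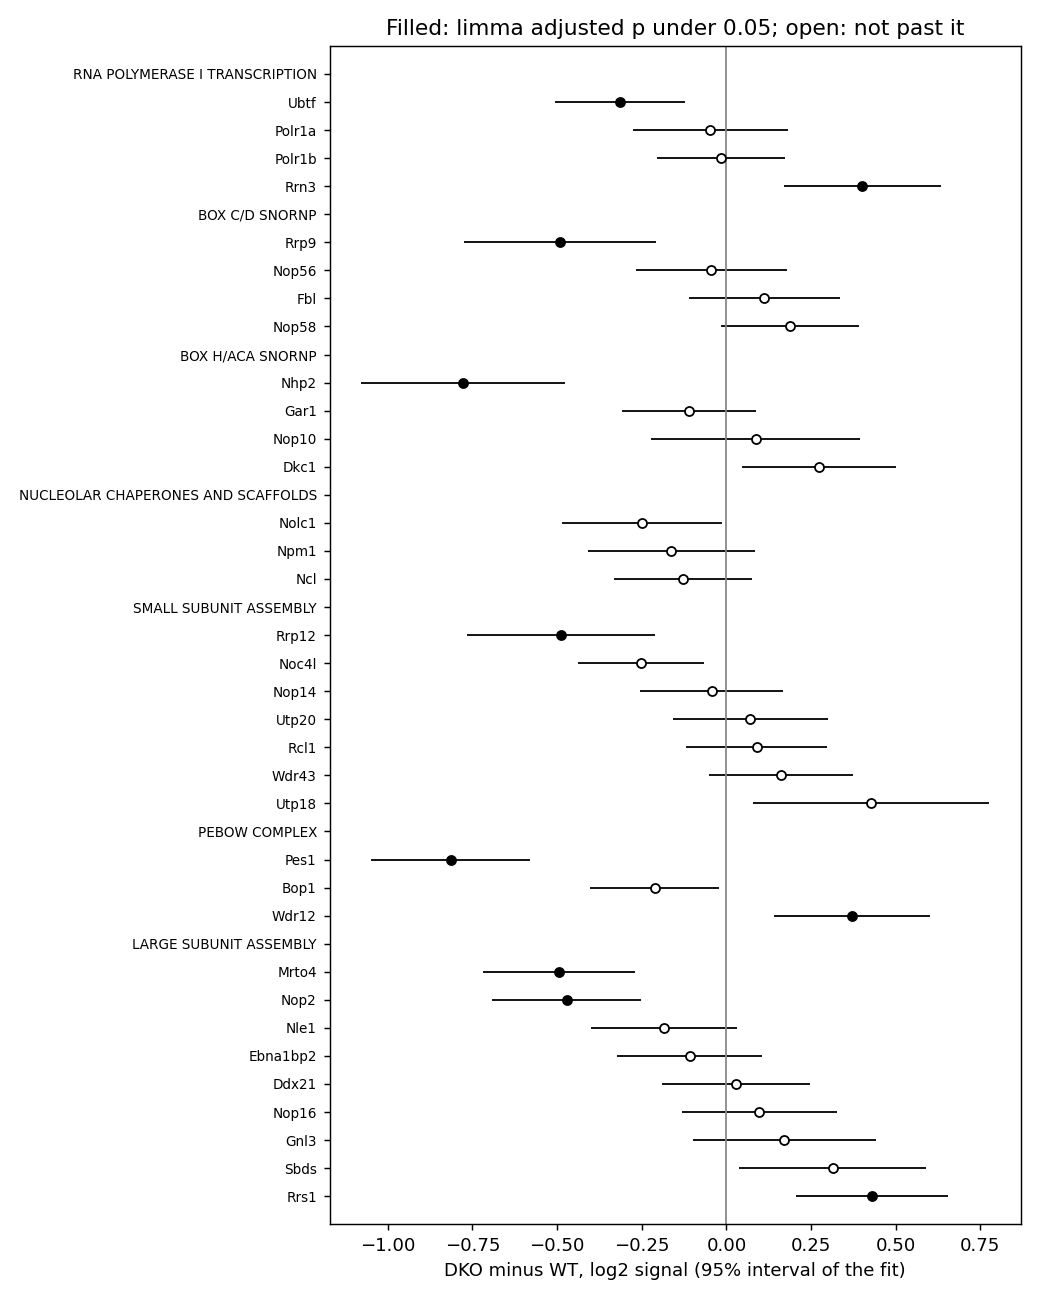
Difference between DKO and WT (log2 signal) of each of the 34 measured factors by role, with its 95% interval from the fit over all genes. Filled points passed the threshold and open points did not, and within every role except the chaperones and scaffolds at least 1 point is filled.

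Promoter sequence was set beside these differences for the 30 of 36 factors found in the RefSeq promoter table of build GRCm38.p6. The 250 bases before each annotated start were searched on both strands for CACGTG, the E-box bound by Myc proteins, which are known to activate ribosome biogenesis genes, and for TGTGGT or TGCGGT, the core bound by Runx proteins. The motifs do not overlap each other. CACGTG was found in 3 of the 30, Rrn3, Nop2 and Utp18, against 6.86% of 27025 genes with such a window. The Runx core was found in 7 of the 30, Ubtf, Nop56, Pes1, Wdr12, Nop2, Gnl3 and Ddx21, against 20.9% of all genes. A gene with several windows was counted if any of them held the motif, as for Ubtf and Wdr12. Both motifs occurred beside rises and beside falls, as CACGTG lay before Rrn3, which rose, and before Nop2, which fell. The Runx core lay before Wdr12, which rose, and before Ubtf, Pes1 and Nop2, which fell. The other genes with a motif, Utp18 for CACGTG and Nop56, Gnl3 and Ddx21 for the Runx core, did not pass. A match is a description of letters and not a bound site. The windows of the 4 factors with the most stable falls, and of Rrn3 as a rise with CACGTG, are shown to let this be seen, from 5′ to 3′ with motif letters in capitals, at chr11:3963725-3963974 for Pes1, chr11:51619523-51619772 for Nhp2, chr6:125131633-125131882 for Nop2, chr4:139352577-139352826 for Mrto4 and chr16:13780449-13780698 for Rrn3, on the minus strand for Mrto4 and on the plus strand for the others.
Pes1: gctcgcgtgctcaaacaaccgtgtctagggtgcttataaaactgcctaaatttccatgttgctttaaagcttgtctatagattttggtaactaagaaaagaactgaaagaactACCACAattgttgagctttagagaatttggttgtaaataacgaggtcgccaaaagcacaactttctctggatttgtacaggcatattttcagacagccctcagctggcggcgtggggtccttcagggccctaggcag
Nhp2: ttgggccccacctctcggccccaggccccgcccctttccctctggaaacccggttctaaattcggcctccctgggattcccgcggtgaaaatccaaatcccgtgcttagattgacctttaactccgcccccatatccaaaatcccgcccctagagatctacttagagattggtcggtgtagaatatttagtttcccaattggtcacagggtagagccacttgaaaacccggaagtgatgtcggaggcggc
Nop2: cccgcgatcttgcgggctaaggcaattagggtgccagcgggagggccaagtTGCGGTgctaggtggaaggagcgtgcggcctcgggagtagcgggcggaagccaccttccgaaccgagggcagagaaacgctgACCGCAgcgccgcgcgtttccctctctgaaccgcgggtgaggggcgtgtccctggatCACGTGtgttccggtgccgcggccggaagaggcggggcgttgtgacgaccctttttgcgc
Mrto4: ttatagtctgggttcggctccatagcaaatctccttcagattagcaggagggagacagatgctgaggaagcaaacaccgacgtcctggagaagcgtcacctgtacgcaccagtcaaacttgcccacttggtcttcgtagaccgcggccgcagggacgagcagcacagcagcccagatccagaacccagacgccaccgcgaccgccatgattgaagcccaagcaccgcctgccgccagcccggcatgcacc
Rrn3: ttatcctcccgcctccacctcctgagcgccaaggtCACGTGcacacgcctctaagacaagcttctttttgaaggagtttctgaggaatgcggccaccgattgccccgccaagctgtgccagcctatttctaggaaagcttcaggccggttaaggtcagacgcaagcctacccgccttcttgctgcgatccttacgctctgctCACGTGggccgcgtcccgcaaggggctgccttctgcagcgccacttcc
In the Nop2 window CACGTG begins 60 bases before the start and the Runx core 117 and 199 bases before it. Rrn3 has CACGTG at 48 and 215 bases and no Runx core. Pes1 has a Runx core, read on the opposite strand, 137 bases before its start, and Nhp2 and Mrto4 have neither motif in these letters. The share of G and C was 44% for Pes1, 54.8% for Nhp2, 67.6% for Nop2, 60% for Mrto4 and 59.6% for Rrn3, against a median of 52.4% over all genes with a window.

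Since Myc proteins are known activators of this pathway, the Myc family was measured alongside. Myc itself read 10.19, 10.79 and 10.78 in DKO arrays, against 10.51, 10.64 and 10.76 in WT arrays. DKO replicate 1 was the lowest of the 6 and the groups overlapped, with a difference of -0.05 (limma adjusted p = 0.858), which was 0.15 without that replicate. Mycn and Max, its relative and its binding partner, differed by 0.11 and 0.31 without passing (0.52 and 0.117). Of the 11 family genes, Mga, a large partner of Max that represses E-box genes, rose by 0.60 (adjusted p = 0.00306), averaging 8.91 ± 0.08 in DKO and 8.32 ± 0.13 in WT (SD, n = 3 each) without overlap. With the trend over gene span and signal removed Mga was at 0.33 and missed the threshold (0.0514). Mlx and Mxd4 fell by 0.40 and 0.30 (0.0388 and 0.0439), calls lost in 11 of 18 alternatives each, including those without DKO replicate 1, 2 or 3 (Mlx 0.0716, 0.132 and 0.0651, and Mxd4 0.124, 0.0902 and 0.133) and without WT replicate 2 (0.101 and 0.0832). The Mlx call was also lost without WT replicate 1 (0.0611), and the Mxd4 call without WT replicate 3 (0.123). Mxd1, Mxd3, Mxi1, Mnt and Mycl did not pass and differed by -0.24 to 0.12.

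A wider list of 138 further genes of the same pathway was read in the same way. Of 131 measured, 16 fell, 12 rose and 103 did not pass, so that 12.2% fell and 9.16% rose, 21.4% together, against 7.69%, 9.71% and 17.4% over all genes, with a median difference of 0.01 against -0.04 over all genes. These genes were brighter than most, with a median percentile of 84.0 by mean signal. In the 10% band of signal that holds this median, 10.1% of genes fell and 22.9% rose. In small subunit assembly 7 fell and 7 rose of 53, in large subunit assembly 5 fell and 4 rose of 48, and in RNA polymerase I transcription 1 fell and 1 rose of 9. Of the 9 genes for snoRNP assembly 2 fell, Ruvbl1 and Ruvbl2, and of 12 for the RNA exosome, which trims ribosomal RNA, 1 fell.

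The 6 falls with the smallest p began with Ddx54, an RNA helicase of the nucleolus, at 6.98, 6.88 and 6.71 in DKO arrays, against 7.41, 7.46 and 7.56 in WT arrays (-0.61, limma adjusted p = 0.00287). With the mean of all its probe sets the value for Ddx54 was -0.39 (0.0139). Ruvbl1, an ATPase of the machinery that assembles snoRNPs, read 9.33, 9.42 and 9.61 in DKO arrays, against 9.94, 9.97 and 9.99 in WT arrays (-0.51, 0.00607). Tcof1, the gene of treacle, a partner of the polymerase I machinery mutated in Treacher Collins syndrome, was at 7.40, 7.40 and 7.22 in DKO arrays, against 7.85, 7.87 and 7.69 in WT arrays (-0.47, 0.00907). Groups did not overlap in these or in Ftsj3, Rrp1b and Rrp8, but all 6 were picked by small p. Of the 131 measured, 33 lower in DKO and 26 higher did not overlap, against 35.8% of all genes. Ftsj3, Rrp1b and Rrp8 fell by 0.54, 0.43 and 0.40, the last of them not passing without DKO replicate 1 (-0.36, 0.0739) or 3 (-0.41, 0.0504).

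Among the 6 rises with the smallest p, Taf1b, a subunit of the factor SL1 that marks the ribosomal DNA promoter, had the largest difference. It read 9.22, 9.26 and 9.22 in DKO arrays, against 8.48, 8.11 and 8.74 in WT arrays, a rise of 0.79 (limma adjusted p = 0.00508). The DKO values were nearly equal, and those of WT spread over 0.63. Brix1 and Tex10, of large subunit assembly, rose by 0.60 and 0.56, and Wdr75, Dcaf13 and Fcf1, of the small subunit processome, by 0.62, 0.57 and 0.49. With the trend over gene span and signal removed, Dcaf13 was at 0.38 (0.0287). Brix1 read 9.62, 9.55 and 9.61 in DKO arrays, against 8.80, 9.26 and 8.92 in WT arrays. These 12 genes passed in all alternatives except the minimum fold of 1.2, and for Rrp8 also except those named above.

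**Figure D4:**
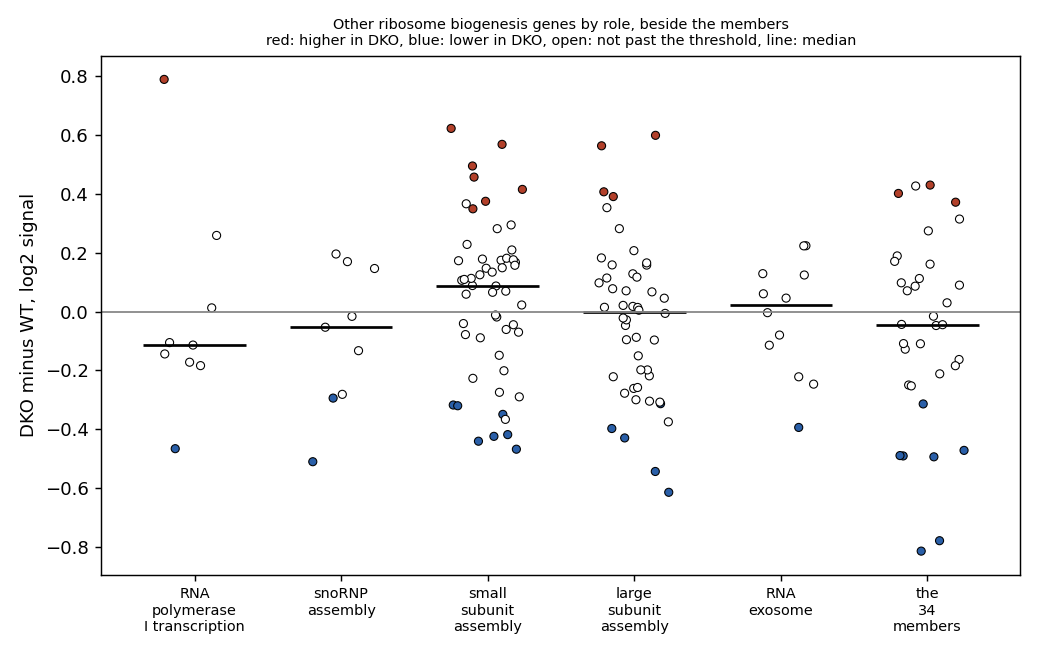
Difference between DKO and WT (log2 signal) of 131 further ribosome biogenesis genes by role, with the 34 factors at the right. Each point is a gene, red where it rose in DKO, blue where it fell and open where it did not pass, and the line is the median, between -0.11 and 0.09 in each column.

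Several factor genes carry snoRNA genes in their introns, which are cut out of the same primary transcript. By RefSeq's gene positions, 6 of the 36 hold 18 snoRNA genes, of which 4 had a probe set of their own. The pair inside Ncl, Snora75 and Snord82, rose by 0.64 and 0.62 (limma adjusted p = 0.0159 and 0.0173), beside -0.13 for Ncl itself. Snora75 read 9.09, 8.78 and 9.27 in DKO arrays, against 8.18, 8.46 and 8.60 in WT arrays. Snord82 read 8.64, 8.97 and 9.24 in DKO arrays, against 8.24, 8.47 and 8.29 in WT arrays. Both calls were lost without DKO replicate 3 (0.52, adjusted p = 0.0662 and 0.47, 0.0585), that of Snora75 without DKO replicate 1 (0.62, 0.0589) or after quantile normalisation (0.47, 0.0549), and that of Snord82 without DKO replicate 2 (0.61, 0.0569) or WT replicate 3 (0.59, 0.0545). Snord57, inside Nop56, fell by 0.66 (0.0353) beside -0.04 for Nop56, at 7.64, 7.46 and 7.88 in DKO arrays, against 7.87, 8.59 and 8.49 in WT arrays. Its groups met at DKO replicate 3 and WT replicate 1, and its call was lost without DKO replicate 1 (-0.65, 0.1) or 2 (-0.56, 0.12), without WT replicate 2 (-0.52, 0.0962) or 3 (-0.57, 0.112), and with arrays centred on the median (-0.61, 0.0531). Snord53, inside Wdr43, differed by 0.28 (0.171), beside 0.16 for its host. The differences between snoRNA and host were not tested, and how well this amplification captures short snoRNAs was not tested.

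Since growth and division go with ribosome production, 11 markers of cycling cells were read on the same arrays. Of these, Cdk1 rose by 0.49 and Mcm5 fell by 0.66 (limma adjusted p = 0.0445 and 0.0193), and 9 did not pass, among them Mcm2, Plk1 and Mki67 at -0.44, -0.42 and 0.16 (0.057, 0.0671 and 0.382). The summed linear signal of the 11 was 6190 to 8120 in DKO and 6730 to 8140 in WT, with DKO replicate 2 the lowest of all arrays. The summed level of cycling markers thus overlapped between the groups, but a linear sum weighs the brightest genes most, here Pcna and Top2a. Whether the probe sets of these markers lie among probe sets of their own chromosome was not checked. Singly, the groups were separate for Mcm5, Mcm2 and Plk1, lower in DKO, and for Cdk1, higher in DKO. Over all genes 35.8% showed no overlap and 17.4% were called, beside 18.2% of these 11 markers called. The part of cycling in the falls of Pes1 and Nhp2 was not tested.

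**Figure D5:**
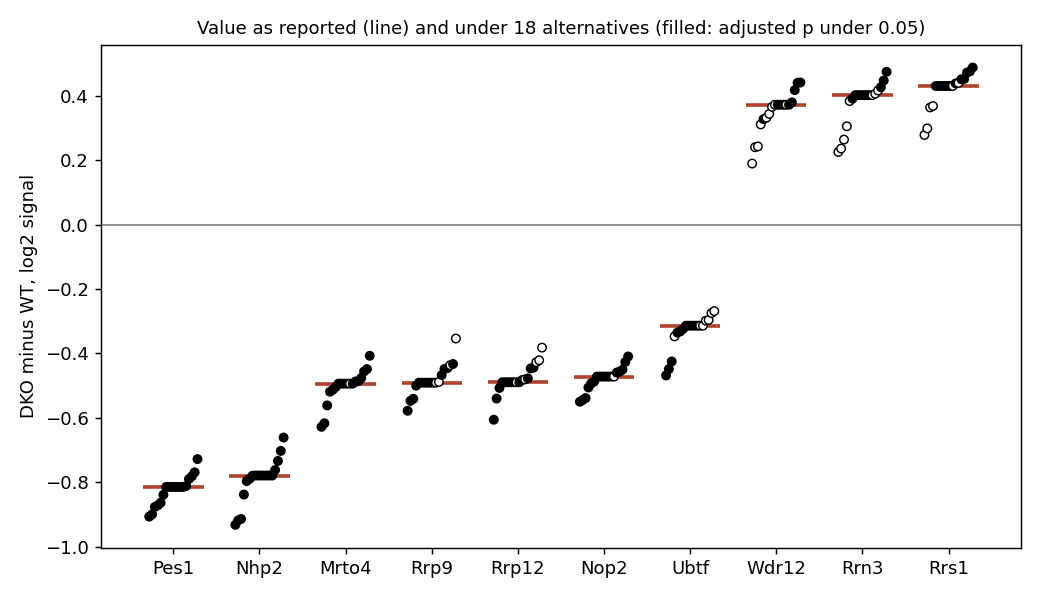
Difference between DKO and WT (log2 signal) of the 10 factors past the threshold, as reported (line) and under 18 alternative analyses (points, filled where the adjusted p was under 0.05). All points of Pes1 and Nhp2 are filled, and open points are most frequent for Wdr12, Rrn3 and Ubtf.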

How the data were processed

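RNA of 3 DKO and 3 WT samples was amplified (NuGEN WT-Ovation Pico) and, per the labels' protocols, read on Affymetrix Mouse Gene 1.0 ST arrays. The deposited values are log2 signals per probe set. Per the labels, the sample titles name gene-level default RMA, whereas the design text names preliminary MAS 5.0 normalisation. The values, with medians of 5.88 to 5.91, look like log2 RMA. The submitters' processing notes list Expression Console 1.0, and no source used here names a genome build.

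Of 35556 probe sets, 21789 had 1 gene symbol, 1621 several and 12146 none in the platform annotation. The first were kept, 1 per gene, without a filter on dim signals. The factors and all gene lists were chosen with earlier results of these data known. DKO minus WT was fitted over 19938 genes with limma 3.58.1 in R 4.3.3 (lmFit, eBayes, two-sided, Benjamini-Hochberg), with 5.52 prior and 4 residual degrees of freedom, and the script was tested on simulated data. Named genes were all factors, the 6 smallest p in each direction of the wider list, the Myc family and snoRNAs inside factor genes. The main fit did not pair samples by replicate number. Same-numbered deviations correlated at -0.00874, -0.0954 and -0.0419, and differently numbered ones at -0.0327 to 0.0746, which cannot show whether samples were paired. Sequences are from RefSeq (GRCm38.p6). The 18 alternatives changed the scaling, the filter on dim genes, the probe set rule, the limma settings, a replicate block and a minimum fold, or left out 1 sample.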

Additional observations from a re-analysis of the deposited data

How the results depend on the processing

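Of 611 values of the 34 factors under 18 alternatives, 541 kept direction and side of the threshold, and only Pes1 and Nhp2 of the 10 called factors passed in all of them. Mrto4 and Nop2 passed in all but the test against a minimum fold of 1.2. The count of factors that rose, 3 as reported, was 0 after quantile normalisation, 0 after cyclic loess, 1 with the trend over gene span and signal removed, 0 against a minimum fold of 1.2, and 0 to 3 with 1 sample left out (0 without DKO replicate 1 or 3). The count that fell, 7 as reported, was 2 to 8 over the alternatives that kept all samples, with 2 against the minimum fold. It was 4 to 7 with 1 sample left out (4 without DKO replicate 1). In the wider list, 12 rises became 0 against the minimum fold and 6 to 13 with 1 sample left out (6 without DKO replicate 3). Over the alternatives that kept all samples, the wider list gave 0 to 14 rises and 0 to 19 falls. Its 16 falls became 0 against the minimum fold, 8 with arrays centred on the median, 9 with the replicate number as a block and 5 to 12 with 1 sample left out (5, 6 and 7 without DKO replicates 1, 2 and 3, and 8 without WT replicate 2). Under the block 2 factors rose and 6 fell, with Ubtf (adjusted p = 0.0722) and Wdr12 (0.0671) lost. Over all genes the 1936 rises and 1533 falls became 1588 and 1546 after quantile normalisation, 2254 and 1121 with arrays centred, 843 to 1388 falls with 1 sample left out, and 570 and 268 against the minimum fold. The cause of these moves was not tested, except that a minimum fold asks for larger changes and that fewer samples were fitted when 1 was left out.

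Fbl changed sign to -0.74 with the probe set of widest range and to -0.31 with the mean of its probe sets, both past the threshold, and was at -0.003 after cyclic loess. The remaining changes of sign did not pass in either direction, and values with 1 sample left out are given as their lowest and highest. With 1 sample left out, Polr1a ran from -0.1096 to 0.0271, Polr1b from -0.0433 to 0.0266, Nop56 from -0.129 to 0.0108, Nop10 from -0.0674 to 0.1718, Nop14 from -0.1203 to 0.0021, Utp20 from -0.0197 to 0.1289, Ddx21 from -0.015 to 0.0996 and Myc from -0.1528 to 0.1465. With arrays centred, Polr1b was at 0.0295, Nop56 at 0.0006 and Nop14 at 0.0015. After cyclic loess, Nop10 was at -0.0299, Nop16 at -0.0331 and Ddx21 at -0.1, and after quantile normalisation Nop16 was at -0.0552 and Ddx21 at -0.1217. With the trend removed, Utp20 was at -0.0934, Wdr43 at -0.0741, Rcl1 at -0.0178 and Ddx21 at -0.0913. The cause of these changes was not tested, except that the probe sets used for Fbl differ.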
